A study of Mus musculus with 2 samples.

Results

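The mouse mitochondrial genome encodes 37 genes, and all 37 were listed in poly(A) RNA-seq data from adult spleen. They are the genes whose symbol starts with mt-, and they comprise 13 mRNAs, 2 ribosomal RNAs (rRNAs) and 22 transfer RNAs (tRNAs) of the 43346 genes in the deposited tables. The spleen tissue was from the inbred strain C57BL/6J, from littermates of both sexes aged 8 weeks, and no mutation or treatment is named. Both samples belong to a single group as biological replicates 1 and 2, here called library 1 and library 2, and paired values are given in that order. Per the labels, RNA over 200 nucleotides was depleted of rRNA, selected for poly(A) tails and sequenced as stranded read pairs of 76 bases with spike-in RNA added. No conditions were compared. The assignment of animals to libraries is not recorded in the labels, and both samples carry the same donor identifier, so the spread between the libraries may be technical. In bulk tissue, fewer cells of a type and less RNA per cell cannot be told apart.

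The mitochondrial genome is a small circle of DNA inside the organelle, and it is transcribed on both strands into long RNAs that span many genes. The tRNAs lie between most of the other genes and are cut out, which frees the mRNAs and rRNAs, and the mRNAs then mostly receive short poly(A) tails. All the mitochondrial mRNAs encode membrane subunits of complexes I, III and IV of the respiratory chain or of the ATP synthase, complex V, while every other subunit is encoded in the nucleus. The nuclear genome also carries copies of mitochondrial DNA, and reads from such a copy and from the organelle look alike.

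The 3′ ends of the mRNAs are shown first, because the poly(A) tail by which these RNAs were selected also completes some of the coding sequences. Of the 13 mRNAs, 10 end on a complete stop codon in the annotated sequence and 3 end on a single base of one. As background, the missing bases of the stop codon are supplied by the poly(A) tail. The ends of those 3 mRNAs and, for comparison, of mt-Co1 are printed here from GENCODE M21 transcripts of GRCm38, 5′ to 3′, with the stop codon or its first base in capitals.
mt-Co3 end: atttattgatgaggatctT
mt-Nd4 end: attacaggcctgacaataT
mt-Cytb end: atactaaaattatatccaT
mt-Co1 end: acctatgtaaaagtaaaaTAA
At the other end, 9 of the 13 mRNAs start with ATG. The other start codons were GTG in mt-Nd1, ATA in mt-Nd2, ATT in mt-Nd3 and ATC in mt-Nd5.

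A second set of sequences bears on how far single values can be read. Of the 13 mRNAs, 7 have an annotated copy in the nuclear genome that is nearly or fully identical. The copies lie side by side on chromosome 1 (GRCm38, minus strand, from 24611535 to 24616197) and are annotated as unprocessed pseudogenes. Over their whole length, 5 of them did not differ from the mitochondrial gene at any base: Gm28661, a copy of mt-Co2 (681 bases compared), Gm10925 of mt-Atp6 (678 bases), Gm28437 of mt-Co3 (783 bases), Gm10222 of mt-Nd4l (294 bases) and Gm28439 of the first 876 bases of mt-Nd4. The remaining copies are Gm28438 of mt-Nd3 and Gm29216 of the last 492 bases of mt-Co1, and their starts are printed beside those of the mitochondrial genes, with the differing bases in capitals.
mt-Nd3 from base 1: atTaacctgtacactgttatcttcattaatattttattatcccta
Gm28438 from base 1: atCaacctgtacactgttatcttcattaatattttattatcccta
mt-Co1 from base 1054: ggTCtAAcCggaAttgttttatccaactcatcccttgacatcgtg
Gm29216 from base 1: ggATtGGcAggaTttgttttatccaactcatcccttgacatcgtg
Counted from 1 at the 5′ end of the mitochondrial gene, with its base first, Gm28438 differs by T3C alone, in the start codon. Gm29216 differs by T1056A, C1057T, A1059G, A1060G, C1062A and A1066T, and not over the remaining bases up to the end of mt-Co1. A read of 76 bases that lies inside the identical stretch cannot be assigned to either place. The share of a gene's 76-base windows that also occur in a nuclear copy was 99.9% for mt-Co3, 99.5% for mt-Co2, 99.5% for mt-Atp6, 98.6% for mt-Nd4l, 97.8% for mt-Nd3, 61.5% for mt-Nd4 and 39.4% for mt-Co1. It was 5.6% for mt-Nd2 and 1.5% for mt-Nd5, and 0 for the other 4 mRNAs and both rRNAs. Only annotated transcripts were searched, so a 0 does not exclude a copy that is not annotated. In the chromosome 1 block, the bases between Gm10925 (to 24614651) and Gm28661 (from 24614885) were not examined. On chromosome M, mt-Atp8 lies between mt-Co2 and mt-Atp6, the genes that these 2 copies match.

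Mitochondrial genes held 0.632% and 0.673% of all TPM, a mean of 0.653% ± 0.0291 (SD, n = 2). TPM is a level per unit of transcript length, scaled to the same total in each library. In counts, 260376 of 49686344 gene counts in library 1 were mitochondrial, or 0.524% (95% exact binomial interval 0.522% to 0.5261%), against 323922 of 51393345 in library 2, or 0.63% (0.6281% to 0.6324%). The count intervals do not overlap, but they cover counting error only. Of the 37 genes, 15 held any count, which were the 13 mRNAs and both rRNAs, and 14 of these reached 1 TPM in both libraries. The mRNAs carried 98.6% of mitochondrial TPM in library 1 and 98.0% in library 2. With the near-identical nuclear copies described above, the share of TPM was 1.06% and 1.13%. This takes the copies at their own deposited TPM, which divides by their own lengths. In counts the share with the copies was 0.651% and 0.777%. mt-Co1 was the highest of the mitochondrial genes and stood at place 33 among all genes of the tables by mean TPM. Its own copy Gm29216, listed at 2920 and 3138 TPM, was among the genes above it.

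Complex IV, cytochrome c oxidase, which passes electrons to oxygen, supplied most of the mitochondrial mRNA. Its 3 mitochondrial mRNAs held 66.4% of mitochondrial mRNA TPM in library 1 and 71.1% in library 2. mt-Co1 (ENSMUSG00000064351, chromosome M, 5328 to 6872 of GRCm38, plus strand), the catalytic subunit, was at 2472 and 2619 TPM, from 158513 and 186186 counts. mt-Co3 (ENSMUSG00000064358, 8607 to 9390, plus strand), a core subunit without metal centres, was at 1431 and 1746 TPM. mt-Co2 (ENSMUSG00000064354, 7013 to 7696, plus strand), which carries the copper centre that takes electrons from cytochrome c, was at 234 and 324 TPM. All 3 were higher in library 2 on the TPM scale, and their order was the same in both libraries.

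Complex III, which hands electrons from ubiquinol to cytochrome c, has a single mitochondrial subunit, cytochrome b. Its mRNA mt-Cytb (ENSMUSG00000064370, 14145 to 15288, plus strand) was at 402 and 420 TPM, from 18000 and 20959 counts. This was 6.45% and 6.36% of mitochondrial mRNA TPM. No 76-base window of mt-Cytb occurs in an annotated copy, so its value does not rest on a division of reads with such copies.

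Complex I, the entry point for electrons from NADH, has 7 mitochondrial subunits but held only 9.62% of mitochondrial mRNA TPM in library 1 and 8.94% in library 2. mt-Nd1 (ENSMUSG00000064341, 2751 to 3707, plus strand), a subunit beside the quinone site, was the highest as deposited, at 204 and 215 TPM. mt-Nd4 (ENSMUSG00000064363, 10167 to 11544, plus strand), one of the proton-pumping subunits of the membrane arm, was at 159 and 206 TPM. The other pumping subunits were lower. mt-Nd5 (ENSMUSG00000064367, 11742 to 13565, plus strand) was at 81.3 and 82.0 TPM, and mt-Nd2 (ENSMUSG00000064345, 3914 to 4951, plus strand) was at 41.4 and 52.5 TPM. These 4 genes kept their order in both libraries.

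The 2 smallest complex I genes of the plus strand had values that the libraries did not share. mt-Nd4l (ENSMUSG00000065947, 9877 to 10173, plus strand), a small membrane subunit, was listed at 109 and 22.7 TPM, from 442 and 119 counts. mt-Nd3 (ENSMUSG00000064360, 9459 to 9806, plus strand), whose product bears the loop that moves between active and resting complex I, was listed at 0 in library 1 and at 6.38 TPM in library 2, from 50.7 counts. Both are genes with an almost complete nuclear copy, and their values with the copies' reads are given below.

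Complex V, the ATP synthase, has 2 mitochondrial subunits and held 17.5% of mitochondrial mRNA TPM in library 1 and 13.6% in library 2. mt-Atp6 (ENSMUSG00000064357, 7927 to 8607, plus strand), part of the proton channel, was at 405 and 562 TPM. mt-Atp8 (ENSMUSG00000064356, 7766 to 7969, plus strand), a small subunit of the stator, was listed at 687 and 335 TPM. These TPM values run against the counts, which were 83 in library 1 and 160 in library 2. The gene is 204 bases long, and the mean fragment implied by the deposited lengths was 214.1 bases in library 1 and 198.4 bases in library 2, so the deposited effective length, the number of places a fragment can start, was only 2.51 in library 1 and 9.06 in library 2. TPM divides by that length. Without mt-Atp8, complex V held 7.3% of the mitochondrial mRNA TPM in library 1 and 8.98% in library 2, and complex IV held 74.6% and 74.9%.

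**Figure D1:**
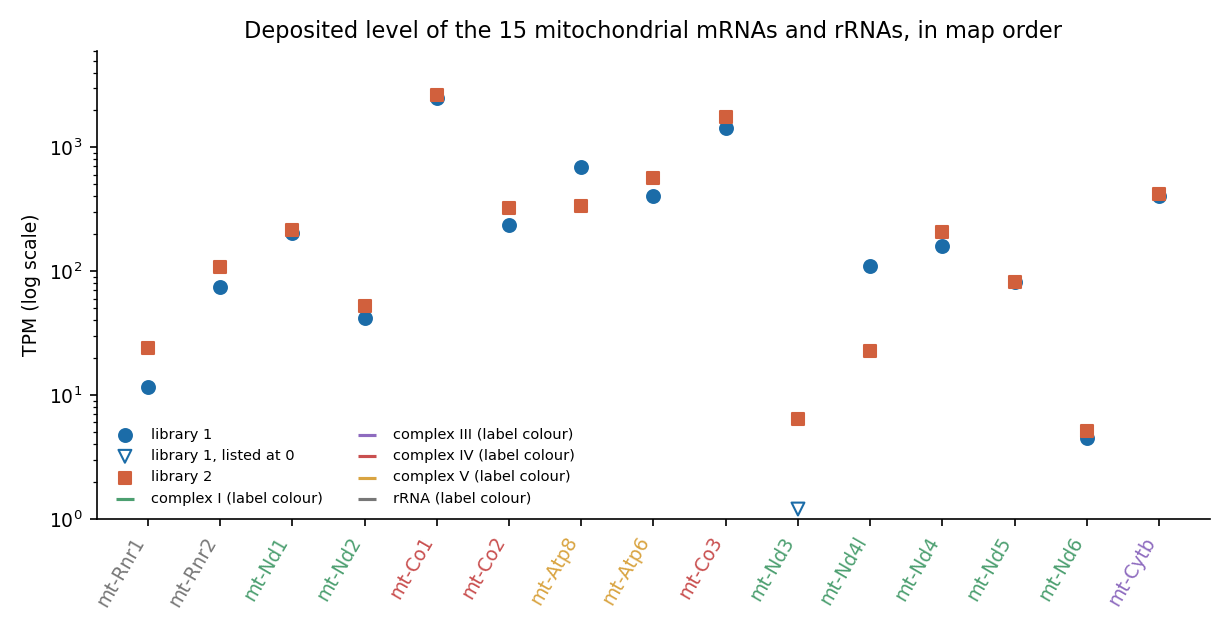
Deposited level in TPM (log scale) of the 15 mitochondrial mRNAs and rRNAs in map order, one point per library, with label colours for the complex or RNA class. mt-Co1 and mt-Co3 are the highest points in both libraries, the values of mt-Atp8, mt-Nd4l and mt-Nd3 lie far apart between libraries, and mt-Nd3 is listed at 0 in library 1.

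The minus strand supplied very little of the counted RNA. Of the 37 genes 9 are annotated on it, which are mt-Nd6 and 8 tRNAs. The tRNAs had a deposited effective length of 0 and could hold no counts, so the value of this strand rests on mt-Nd6 alone. The libraries were selected for poly(A) tails, and the part of that step in this value was not tested. mt-Nd6 (ENSMUSG00000064368, 13552 to 14070, minus strand), a membrane subunit of complex I, was at 4.48 and 5.13 TPM, from 66 and 87 counts. It held 0.0719% and 0.0778% of mitochondrial mRNA TPM, and mt-Co1 stood 552 times higher in library 1 and 510 times higher in library 2. Its plus-strand neighbour mt-Nd5, with which it shares 14 bases on the opposite strand, stood 18.2 and 16 times higher. Whether the counting used strand is not stated in any source at hand, so reads of the plus-strand RNA across this gene and reads of mt-Nd6 cannot be told apart if it did not. The base composition of mt-Nd6 is the reverse of the other mRNAs: 28.1% G and 6.0% C, against 5.9% to 16.1% G and 22.1% to 30.0% C in the 12 plus-strand mRNAs. The first 60 bases of mt-Nd6 and of mt-Co1, in the sense of each mRNA, show this difference.
mt-Nd6 start: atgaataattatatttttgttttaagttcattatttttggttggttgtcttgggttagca
mt-Co1 start: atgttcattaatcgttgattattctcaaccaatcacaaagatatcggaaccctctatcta

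The rRNAs, the structural RNAs of the mitochondrial ribosome, were present but low. mt-Rnr2 (ENSMUSG00000064339, 1094 to 2675, plus strand), the large-subunit rRNA, was at 74.3 and 108 TPM, from 4897 and 7887 counts. mt-Rnr1 (ENSMUSG00000064337, 70 to 1024, plus strand), the small-subunit rRNA, was at 11.6 and 24.0 TPM, from 414 and 959 counts. Together they held 1.36% of mitochondrial TPM in library 1 and 1.96% in library 2, and mt-Co1 stood 33.3 and 24.3 times above mt-Rnr2. The labels name both rRNA depletion and poly(A) selection for these libraries, and the part of either step in these values was not tested. mt-Rnr2 was 6.41 times mt-Rnr1 in library 1 and 4.5 times in library 2.

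All 22 tRNAs were listed at 0 counts in both libraries. They are 59 to 75 bases long, under the size selection in the labels and under the length of a fragment, and their deposited effective length was 0. No fragment could be assigned to them in these tables, so the 0 sets no limit on their level.

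By mean TPM as deposited the order ran mt-Co1, mt-Co3, mt-Atp8, mt-Atp6, mt-Cytb, mt-Co2, mt-Nd1, mt-Nd4, mt-Rnr2, mt-Nd5, mt-Nd4l, mt-Nd2, mt-Rnr1, mt-Nd6 and mt-Nd3. Neighbours whose ranges over the libraries overlapped were mt-Atp8 with mt-Atp6, mt-Atp6 with mt-Cytb, mt-Nd1 with mt-Nd4, mt-Rnr2 with mt-Nd5, mt-Nd5 with mt-Nd4l, mt-Nd4l with mt-Nd2, and mt-Nd6 with mt-Nd3. The order is therefore not resolved within these pairs by 2 libraries.

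The copies on chromosome 1 held 63116 counts in library 1 and 75594 in library 2, which was 19.5% and 18.9% of all counts listed for mitochondrial genes or these copies. Gm29216, the copy of the end of mt-Co1, was listed at 2920 and 3138 TPM, above mt-Co1 itself, from 39223 and 48788 counts. Gm28437, the copy of mt-Co3, was listed at 503 and 520 TPM, and Gm28661, the copy of mt-Co2, at 281 and 300 TPM. Reads of a copy and of its mitochondrial source cannot be told apart where the sequence is the same, so these numbers describe how the estimation divided the reads and not which genome was transcribed.

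For the short genes most of the reads were listed under the copy. Gm10222 took 81.6% of the counts it shares with mt-Nd4l in library 1 and 95.7% in library 2. Gm28438 took 100% of the counts it shares with mt-Nd3 in library 1 and 88.6% in library 2. With mt-Atp6 the division went from 13.4% for Gm10925 in library 1 (1408 counts) to 0.000767% in library 2 (0.11 counts). In posterior mean counts, however, Gm10925 was at 2088 and 1876. By contrast Gm28439, which matches most of mt-Nd4 exactly, was listed at 0 in both libraries. The division of expected counts thus differed between genes of equal identity and between libraries.

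**Figure D2:**
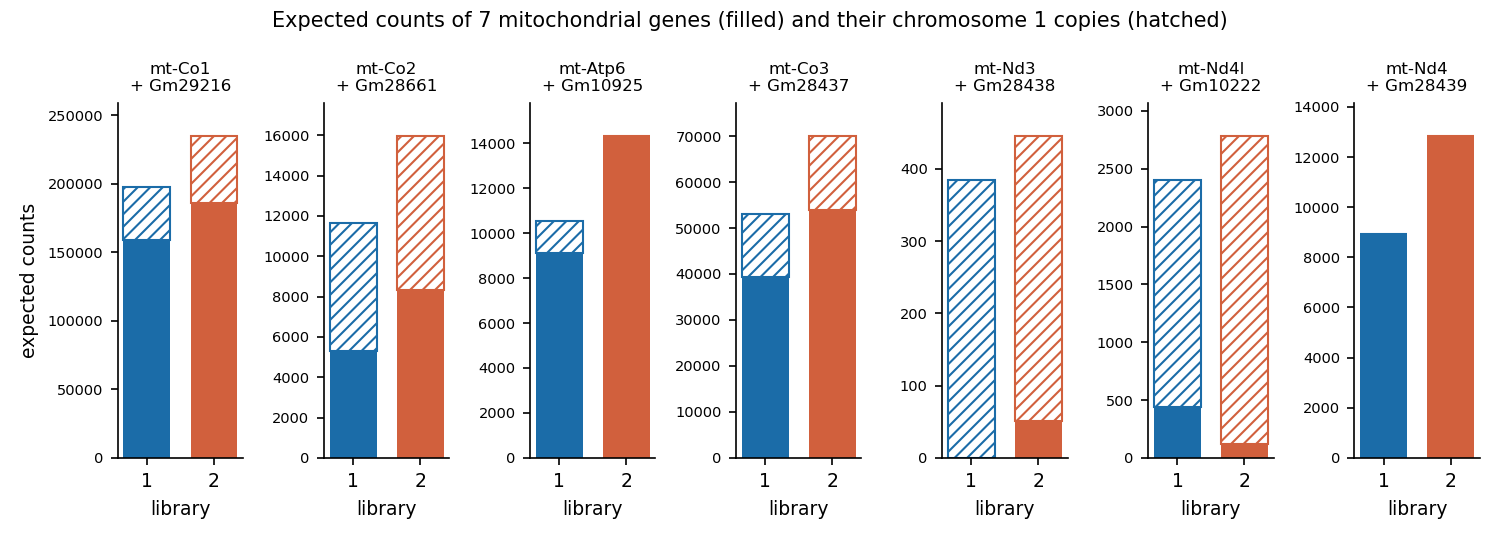
Expected counts of the 7 mitochondrial genes with a near-identical copy on chromosome 1 (filled) with the counts listed for that copy on top (hatched), by library, each panel on its own linear scale from 0. The copy holds most of the counts for mt-Nd3 and mt-Nd4l, close to equal shares for mt-Co2, and 0 for mt-Nd4.

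The deposited tables carry an interval around the posterior mean of each TPM, whose confidence level no source at hand states, and it was wide for the 5 genes with a near-identical copy over nearly their whole length. For mt-Co3 it ran from 622 to 1548 TPM in library 1 and from 784 to 2076 TPM in library 2. For mt-Nd4l it ran from 53.9 to 211 TPM in library 1 and from 7.93 to 61.8 TPM in library 2, and for mt-Nd3 from 0.00047 to 17.8 TPM and from 1.53 to 28.8 TPM. The intervals of the libraries overlapped for each of these 3 genes, as they did for mt-Co2 and mt-Atp6. For mt-Cytb, with no near-identical annotated copy, it ran from 393 to 404 TPM and from 411 to 423 TPM.

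Adding the copy's counts to the gene removes the division, at the price of including whatever the copies themselves express. This alternative was chosen after seeing the data, and its levels are given as pooled TPM, the pooled count over the mitochondrial gene's effective length on the TPM scale of the library. Pooled, mt-Nd4l was at 594 and 530 TPM, above mt-Nd1, and mt-Nd3 was at 59.2 and 56.1 TPM. The large differences between the libraries in these 2 genes were thus not present in the sums. mt-Co2 came to 513 and 623 TPM, mt-Atp6 to 467 and 562 TPM, mt-Co3 to 1933 and 2265 TPM, and mt-Co1 to 3083 and 3305 TPM. Complex I then held 13.9% and 13.2% of mitochondrial mRNA TPM, complex III 4.88% and 4.85%, complex IV 67.2% and 71.5%, and complex V 14.0% and 10.4%. In the pooled order mt-Co1 and mt-Co3 still led, mt-Co2, mt-Nd4l, mt-Atp6, mt-Atp8 and mt-Cytb followed with overlapping ranges between neighbours, and mt-Nd6 was last.

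Other nuclear copies held few counts. A search of the annotated transcripts with the mRNAs found 17 copies in all, at 90% identity or more over at least 100 bases. The 8 listed copies outside the chromosome 1 block held at most 9.02 counts in a library.

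The 4 genes mt-Atp8, mt-Atp6, mt-Nd4l and mt-Nd4 form pairs that overlap on the same strand and are translated from a shared mRNA in each pair. The end of mt-Atp8 contains the first 43 bases of mt-Atp6, and the end of mt-Nd4l contains the first 7 bases of mt-Nd4, both printed here with the start of the downstream gene in capitals.
mt-Atp8 into mt-Atp6: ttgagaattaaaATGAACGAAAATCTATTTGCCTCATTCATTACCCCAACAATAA
mt-Nd4l into mt-Nd4: aaatctcaacctactacaATGCTAA
As deposited, mt-Nd4l stood at 0.687 times the TPM of mt-Nd4 in library 1 and at 0.11 times in library 2. Pooled with the copies it stood at 3.74 times and 2.57 times on the TPM scale. In pooled counts per kilobase of annotated length, which do not use the effective length, it stood at 1.25 times and 1.01 times. mt-Atp8 stood at 1.7 times the TPM of mt-Atp6 in library 1 and 0.595 times in library 2, but at 0.0263 and 0.0372 times in pooled counts per kilobase. For both short genes of the pairs the level relative to the partner therefore depended on the length used and, for mt-Nd4l, on the copy.

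The next question is how far the libraries differed in each gene. It was asked on expected counts scaled to the libraries by TMM, a trimmed mean of log ratios, with an exact two-sided binomial test adjusted by Benjamini-Hochberg over 17547 genes at 0.05. With 1 library on each side the test compares these libraries beyond counting error and no conditions. As deposited, 13 of the 15 genes with counts were higher in library 2, 1 was lower and 1 did not pass. Across all genes tested 24.1% were higher and 26.6% lower, and among the 3653 genes with 5000 or more counts in total, where small differences pass the test, 25.3% were higher and 54.1% lower. The median log2 ratio of the 13 mRNAs was 0.44, against 0.01 over all genes tested. These directions hold relative to the other genes: scaled to the spike-ins, which put the median of all genes at -0.91, only 2 of the 15 were higher and 12 were lower, with the mRNA median at -0.49.

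Both rRNAs were higher in library 2. mt-Rnr1 was 2.29-fold higher in library 2 (95% exact counting interval 2.04 to 2.57, adjusted p = 2.7e-47 by the exact binomial test) and mt-Rnr2 1.59-fold higher (1.53 to 1.65). mt-Rnr1 passed 2-fold, as did mt-Nd4l in the other direction. mt-Nd3, at 0 counts in library 1, has no fold and passed 2-fold higher only on the log2 ratio with a prior count. Of all genes tested 4.43% were over 2-fold higher and 2.84% over 2-fold lower, and with pooled counts, where only mt-Rnr1 passed 2-fold, 4.42% were higher. Among mRNAs without a near-identical annotated copy, mt-Nd2 was 1.4-fold higher (1.31 to 1.49) and mt-Nd1 1.16-fold (1.13 to 1.2). In the same group mt-Cytb was 1.15-fold (1.13 to 1.17) and mt-Nd5 1.1-fold higher (1.06 to 1.14). mt-Atp8 was 1.9-fold higher in counts (1.45 to 2.51, adjusted p = 5.21e-06 by the exact binomial test), while its TPM was lower. mt-Nd6 was 1.3-fold (0.934 to 1.82) and did not pass (adjusted p = 0.174 by the exact binomial test) at 66 and 87 counts.

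For the genes with copies the ratio depended on the division of reads. mt-Nd4l fell by 1.89 on the log2 scale as deposited (0.266-fold, 0.215 to 0.326), and this was the only lower call. mt-Nd3, listed at 0 in library 1 where all 385 shared counts went to the copy, has no fold as deposited, and its log2 ratio was 1.31 in posterior mean counts. Pooled with their copies both were 1.14-fold, with intervals of 1.08 to 1.21 for mt-Nd4l and 0.996 to 1.31 for mt-Nd3, the latter with an adjusted p of 0.1 by the exact binomial test. The ratio of mt-Co2 went from 1.55-fold to 1.36-fold, that of mt-Atp6 from 1.55-fold to 1.35-fold, and that of mt-Co3 from 1.36-fold to 1.3-fold. mt-Co1 was at 1.16-fold and 1.17-fold, and mt-Nd4 at 1.42-fold in both. After pooling, 13 of the 15 were higher and none was lower, the log2 ratios ran from 0.14 to 1.19, and the median of the mRNAs was 0.37, where the share of all genes called remained 24.1% higher and 26.6% lower.

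**Figure D3:**
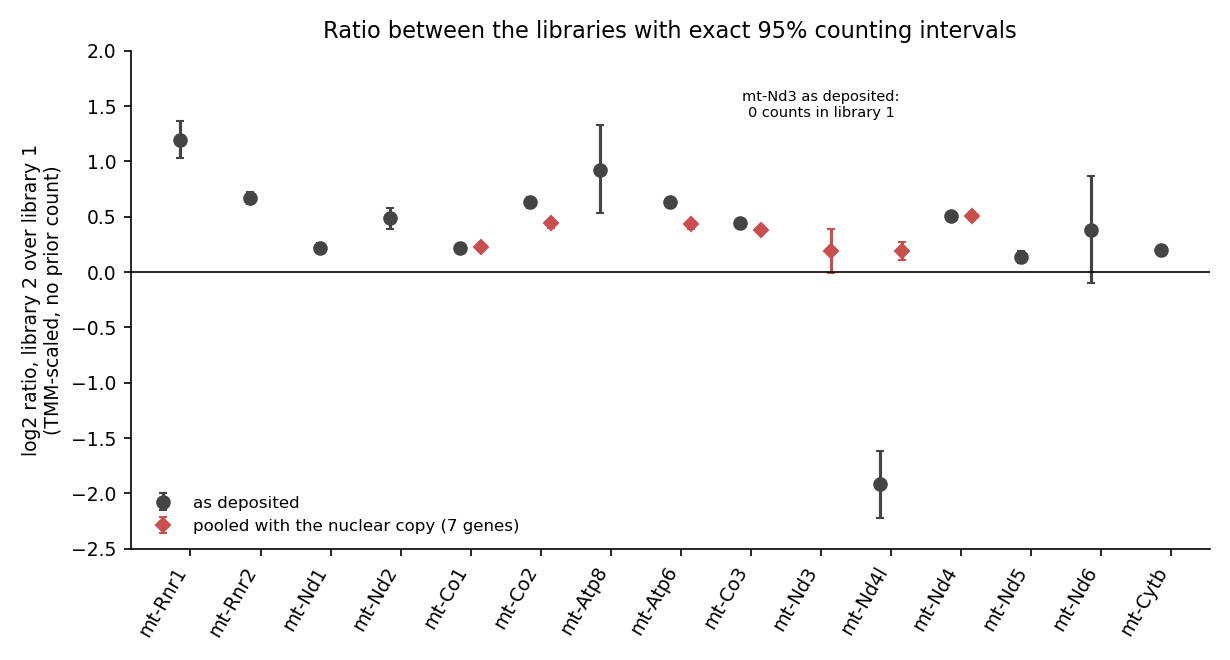
Log2 ratio of library 2 over library 1 in TMM-scaled counts for the 15 genes in map order, as deposited (circles) and, for the 7 genes with a chromosome 1 copy, pooled with it (diamonds), with exact 95% counting intervals as bars. Pooling moves mt-Nd4l from below to above 0 and places mt-Nd3, which has no ratio as deposited, beside it, while mt-Rnr1 stays highest.

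Mitochondrial genes are poor in G and C. The 12 plus-strand mRNAs hold 31.9% to 41.1% GC against a median of 51.0% over the genes tested, and a trend of the log2 ratio with GC content and length, fitted over genes with a GC value and 50 or more counts, stood at 0.22 for mt-Co1 to 0.69 for mt-Atp8, the lowest and highest of the mRNAs. With that trend removed, 8 of the 15 genes were higher and 3 lower in library 2, where 21.3% and 24.9% of the 17413 tested genes with a GC value were, and the median of the mRNAs was 0.18. Pooled with the copies as well, the median of the mRNAs was 0.01 with a range of -0.30 to 0.23. The rRNAs remained apart, at 0.36 for mt-Rnr2 and 0.89 for mt-Rnr1. Whether base composition, fragment length or the tissue set the difference was not tested. Over the 13 mRNAs the pooled level had a Spearman's rho of 0.67 with GC content and of -0.01 with length, as a description of 13 genes of a single genome that are not independent.

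The libraries also differed in markers of other cells, which could carry mitochondrial RNA of their own. The counts called in each list stand beside 24.1% higher and 26.6% lower among all genes tested. Of 8 spleen markers all reached 1 TPM in both libraries, 6 were higher in library 2 and 2 lower. Red cell genes held 19.5% of TPM in library 1 and 30.5% in library 2, with 6 of 6 higher. The 7 genes of the exocrine pancreas, a neighbour of the spleen, held 7.62% and 5.95%, with 6 higher and 1 lower in TMM-scaled counts. Of 5 fat genes 4 were higher, and their summed level was 47.8 and 104 TPM. All 5 genes of heart and skeletal muscle, a tissue rich in mitochondria, were higher in library 2, but none reached 1 TPM in both and they summed to 1.59 and 4.58 TPM. Kidney tubule genes summed to 0.51 and 2.87 TPM, with 4 of 4 tested higher. Of 3 liver genes none was called, and they summed to 2.61 and 2.25 TPM. The part of these cells in the mitochondrial ratios was not tested.

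The nuclear genes whose products transcribe, process and degrade mitochondrial RNA or copy its DNA were detected at low to moderate levels. Of 32 such genes 31 reached 1 TPM in both libraries, at a median of 5.6 and 4.57 TPM. By the exact binomial test 3 were higher in library 2 and 9 lower, where 24.1% and 26.6% of all genes tested were, with a median log2 ratio of 0.05. The highest by mean TPM was Mterf3, which regulates mitochondrial transcription and ribosome assembly, at 329 and 221 TPM from only 442 and 608 counts. Its TPM thus ran against its counts, which had a log2 ratio of 0.44 after TMM scaling. Next were 2 members of the FASTK family of RNA-binding proteins, Fastk at 188 and 149 TPM and Tbrg4 at 113 and 79.5 TPM. The lowest was Tfb1m, an rRNA methyltransferase, at 0.54 and 0.76 TPM. Some central factors, chosen after their values were seen, lay between them. The RNA polymerase Polrmt was at 53.8 and 55.9 TPM, the DNA-packaging factor Tfam at 5.6 and 5.72 TPM, the mRNA-binding protein Lrpprc at 6.12 and 4.82 TPM, and the poly(A) polymerase Mtpap at 1.87 and 1.99 TPM.

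Nuclear subunits of the same complexes were set beside the mitochondrial ones on the TPM scale. The median of 10 nuclear complex IV subunits was 180 and 138 TPM, from Cox7b at 30.2 and 26.6 TPM to Cox6a1 at 1218 and 699 TPM. By deposited TPM mt-Co1 and mt-Co3 stood above all 10 in both libraries. In posterior means mt-Co3 was at 1020 TPM in library 1, below the deposited TPM of Cox6a1, and at 1320 TPM in library 2. For complex III the median of 9 nuclear subunits was 127 and 105 TPM, from Uqcrb at 3.99 and 4.32 TPM to Uqcr11 at 678 and 359 TPM. mt-Cytb lay below Uqcr11 in library 1 and above it in library 2.

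For complex I the median of the 7 nuclear core subunits was 48.9 and 53.4 TPM, from Ndufs1 at 11.2 and 11.2 TPM to Ndufs7 at 362 and 283 TPM. The 7 mitochondrial ones had a median of 81.3 and 52.5 TPM as deposited, in the same range. Pooled with the copies, the middle gene of the 7 was mt-Nd5 in both libraries, at 81.3 and 82.0 TPM. For complex V the 13 nuclear subunits had a median of 149 and 140 TPM, from Atp5k at 16.5 and 16.9 TPM to Atp5b at 1416 and 763 TPM. Between the libraries, the median log2 ratio of the nuclear subunits was 0.14 for complex I, -0.14 for complex III, -0.29 for complex IV and 0.01 for complex V. In library 2, 6 of the 10 nuclear complex IV genes were lower and 2 higher. Over all genes tested, 26.6% were lower and 24.1% higher. Among genes with 5000 or more counts, which not all of the 10 reach, 54.1% were lower and 25.3% higher. The 3 mitochondrial ones were higher, and the difference between the groups was not tested.

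**Figure D4:**
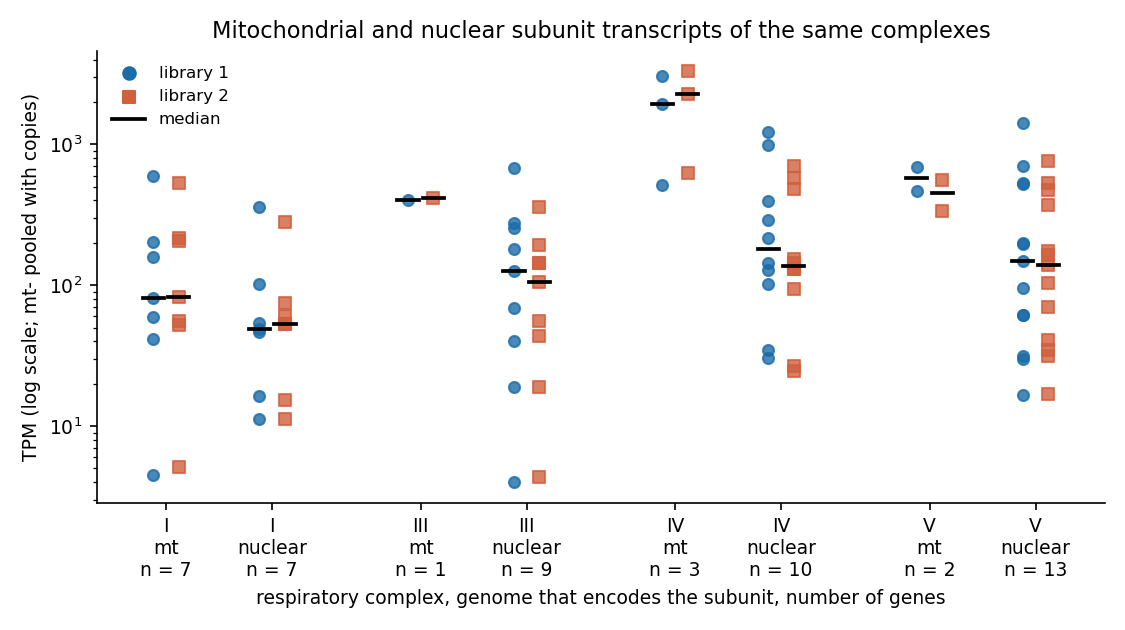
TPM (log scale) of the mitochondrial mRNAs, pooled with their nuclear copies, and of nuclear subunits of the same complex in library 1 (circles) and library 2 (squares), with the median as a black bar and the number of genes under each group. mt-Co1 and mt-Co3 stand above every nuclear complex IV subunit listed, while mt-Nd6 is the lowest mitochondrial point.

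A second readout is the deposited list of contigs, runs of unbroken read coverage, made over the whole series. The list is on the older mm9 assembly and was not joined to genes. It holds 8 contigs on chromosome M of 687468 in all, 7 on the plus strand over 12051 bases and 1 on the minus strand over 609 bases. The highest level, 469 in the authors' unit, was that of the plus-strand contig from 1106 to 6695, at percentile 99.99 of all contigs. The contigs from 10816 to 11544 (level 195) and from 11755 to 15288 (level 123) came next. The contig from 61 to 994 was far lower, at 12.5, and the minus-strand contig, from 15570 to 16178, was at 1.32.

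Between 6696 and 10815 the plus strand held only a contig of 90 bases and a contig of 193 bases, at levels of 0.062 and 0.142, with gaps of 1264, 1373 and 1200 bases around them. No source at hand states how that list treated reads that match more than 1 place. The deposited junction list, also on mm9, holds 83 splice junctions on chromosome M with 222 reads in all, 79 of them on the plus strand. As background, mitochondrial genes have no introns. The gapped stretches were short, with a median of 83 bases against 1575 bases on the other chromosomes, and 59.0% rested on a single read against 41.9% elsewhere. Only 3 had 10 or more reads: 6458 to 6518 with 38 reads, 6451 to 6517 with 36 reads and 14428 to 14538 with 15 reads. The first 2 overlap each other and span 61 and 67 bases.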

How the data were processed

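The 2 poly(A) RNA-seq libraries form a single group. Per the deposited notes, the authors computed the gene tables from transcriptome alignments to mm10 with GENCODE M4, 1 table per replicate. The aligner, the quantification tool and the use of strand are not given in those notes or the labels. Expected counts, as deposited, are estimated reads per gene and not normalized. The deposited TPM and FPKM are scaled by length and library, and the deposited TPM bounds are on the same scale (read here as signal). The deposited mm9 lists give a coverage signal and an irreproducibility value per contig, read as a p-value and not used to filter, and read counts per junction.

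Symbols and positions came from GENCODE M21 by unversioned identifier (42462 genes, 98.0%). Library sizes were gene counts without spike-ins, 49686344 and 51393345, scaled by TMM factors of 1.01 and 0.99 (edgeR 4.0.16, R 4.3.3). Genes whose rounded expected counts summed to 10 or more were tested by an exact two-sided binomial test with Benjamini-Hochberg adjustment, in place of a dispersion model, since 2 libraries of one group leave no contrast with residual degrees of freedom; the test code was tested on simulated data. Log2 ratios use a prior count of 2, and folds use none. Intervals are exact at 95% and hold counting error alone. They leave out the spread between replicates and the uncertain division of reads with copies. The reads carry no molecular identifiers, so reads and not molecules were counted. No exact test over 2 samples can reach 0.05. Copies were found with BLAST+ 2.17.0 among annotated transcripts, and pooled at 99% identity or more. The trend with GC content and length was a loess fit with a span of 0.5 over genes with a GC value and 50 or more counts in total, and it was removed from the 17413 tested genes that had a GC value. Alternatives were DESeq2 1.42.0 size factors, library totals, spike-in totals, other filters and prior counts, posterior means and other length scalings.

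The text names every mitochondrial mRNA and rRNA, tRNAs with 10 or more counts in both libraries (none), the copies with 10 or more counts in both, the highest and lowest gene of each nuclear list, and the 3 highest of the expression list. Copies outside this rule (Gm10925, Gm28439) are named because the others of their block are. The members and lists were chosen with earlier results of these data known. The transcript tables were not used. Python 3.11.15, pandas 2.3.3, numpy 2.4.6, scipy 1.17.1 and matplotlib 3.10.9 did the rest.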

Additional observations from a re-analysis of the deposited data

How the results depend on the processing

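The ratios between libraries kept direction and call in all 15 genes under DESeq2 size factors, library totals, no filter on low counts, a minimum of 50 counts, a prior count of 0.5 and posterior mean counts. Scaled to spike-ins, which came to 0.675% and 1.26% of gene counts, the median of all genes fell to -0.91. There 2 mitochondrial genes were higher and 12 lower, the median of the mRNAs was -0.49, and the log2 ratio turned for mt-Rnr2 (-0.26), mt-Nd1 (-0.71), mt-Nd2 (-0.45), mt-Co1 (-0.71), mt-Co2 (-0.30), mt-Atp6 (-0.29), mt-Co3 (-0.49), mt-Nd4 (-0.42), mt-Nd5 (-0.79), mt-Nd6 (-0.53) and mt-Cytb (-0.73). This scaling moves every gene by the same amount. With the trend with GC content and length removed, 8 genes were higher, the median of the mRNAs was 0.18, and mt-Nd1 (-0.05), mt-Co1 (-0.01), mt-Nd5 (-0.14), mt-Nd6 (-0.02) and mt-Cytb (-0.04) turned. Pooled with copies, mt-Nd4l turned to 0.19; pooled and with the trend removed, the median of the mRNAs was 0.0063. As a difference of log2(TPM + 1) the median was 0.16. The causes were not tested.

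The share of TPM was 0.609% by posterior means, 0.601% without mt-Atp8 and 0.577% in expected counts. It was 1.1% with the nuclear copies at their own deposited TPM, and 0.632% to 0.673% without either replicate. Complex IV held 75.8% of mitochondrial mRNA per kilobase of annotated length, 79.3% in expected counts and 74.8% without mt-Atp8. Complex V held 7.37% per kilobase, 4.11% in counts, 12.2% pooled with copies and 8.14% without mt-Atp8. Part of the complex V TPM rests on the 83 and 160 counts of mt-Atp8. Complex I held 10.2% by posterior means, 9.77% in counts, 13.6% pooled and 10.1% without mt-Atp8. The rRNA share of mitochondrial RNA was 2.39% in counts. The minus strand, where only mt-Nd6 could hold counts, held 0.0792% of it by posterior means and 0.0604% per kilobase. In counts it held 0.0261%, pooled 0.0561% and without mt-Atp8 0.0799%. At 5 TPM, 15 of the 32 nuclear genes of mitochondrial expression were detected. The least certain members are those with full-length copies, mt-Atp8, and mt-Nd6, whose counts are low. No paired analysis was possible because there is a single group.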
